A study of Homo sapiens with 10 samples.

Results

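IRS4, IRS1 and IRS2 encode insulin receptor substrates, and INSR, IGF1R and IGF2R encode the receptors of insulin and the insulin-like growth factors (IGF). These 6 genes are described here out of the 24994 genes and unnamed transcripts listed in 10 libraries of polyadenylated RNA from HEK293, a human embryonic kidney cell line. They were listed by name as insulin and IGF receptors and their substrates, and the rule sets no threshold on their values. Each had 1 transcript accession in the files, and all 6 had tags (sequencing reads assigned to a transcript) in every library. All 6 passed the filter on low counts.

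The libraries fall into 6 groups of HEK293 cells. Before harvest, cells took up 4-thiouridine (4SU, a modified uridine that nascent transcripts incorporate) at 1 mM over 12 to 14 h, and were crosslinked with ultraviolet light at 365 nm (2 libraries) or left without crosslinking (2 libraries). Cells given no 4SU were crosslinked at 254 nm (2 libraries) or received neither treatment (untreated, 2 libraries). In the remaining pair, with 1 library each, an siRNA targeted HuR, an RNA-binding protein encoded by ELAVL1, or GFP as a control. Whether libraries A and B of a group are separate cultures is not stated, so p-values reflect only how far these libraries spread, which may be technical.

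Insulin and IGF1 bind the related receptor tyrosine kinases INSR and IGF1R. The activated receptors phosphorylate IRS proteins, which dock PI3 kinase and the adaptor GRB2 and so pass the signal to AKT and to the RAS and MAP kinases. IGF2R, the cation-independent mannose 6-phosphate receptor, has no kinase domain. It carries IGF2 and lysosomal enzymes into the cell. IRS1 and IRS2 are widely expressed, whereas IRS4 was first purified from HEK293 cells and is the IRS protein for which this line is known.

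The libraries held 2238569 to 3099769 tags in the 8 libraries without siRNA, 9016803 tags with HuR siRNA and 8688262 tags with GFP siRNA. Crosslinked libraries held shorter transcripts. The tag-weighted median length was 1147 and 1431 nt in 4SU plus 365 nm libraries, against 2373 and 2850 nt with 4SU alone. It was 1534 and 1305 nt in 254 nm libraries, against 2666 and 3029 nt in untreated libraries. The HEK293 marker genes NEFL, INA, KRT18 and CDH2 had tags in all 10 libraries, whereas PAX2, LHX1 and KRT8 stayed under 4 counts per 1000000 tags. Of 14 markers of other cell types 9 were matched; PTPRC, DCN and GCG were at or near 0 in every library. Their summed level was 72.8 to 73.1 counts per 1000000 tags in 4SU plus 365 nm libraries and 13.9 to 21.1 in the other 8, and COL1A1, a fibroblast collagen gene, made up most of it. In bulk samples, fewer cells with a transcript and less transcript per cell cannot be told apart.

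The transcripts differ in build, which bears on the HuR comparison because HuR is known to bind uridine-rich RNA. The GENCODE 29 transcript of IRS4 was a single exon of 3928 nt, of which 96.1% was coding, with a 3′ untranslated region (UTR) of 89 nt. Its longest run of T was 6, a length reached by 66.9% of 9444 genes, and that run lay in the coding part. RefSeq places the IRS4 gene at chrX:108719946-108736563 (GRCh38.p14), a longer span than this exon. Sequence and length values for IRS4, the length correction included, hold for this short transcript and not for any longer one. INSR held a run of 25 T in its 3′ UTR and IGF1R a run of 24 T in its 5′ UTR, lengths reached by 0.900% and 1.14% of genes. The GENCODE transcript of IGF1R, at 11726 nt, was 4.3% longer than the counted one. Its run starts at base 483, so the counted transcript may lack the run. The longest T run, in capitals, is shown with its neighbouring bases for these 3 genes, which hold the fewest and the most TTTTT per length of the 6, in GRCh38 and on the sense strand: IRS4 lies at chrX:108735034-108735063 on the minus strand, INSR at chr19:7114045-7114074 on the minus strand and IGF1R at chr15:98649523-98649552 on the plus strand.
IRS4: gtgccggccagcTTTTTTcgccgcttagca
INSR: gcTTTTTTTTTTTTTTTTTTTTTTTTTgca
IGF1R: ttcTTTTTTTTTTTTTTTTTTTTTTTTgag

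Over the whole transcript, TTTTT (sense strand, overlapping matches counted) occurred 4 times in IRS4, or 1.02 times per 1000 nt, which was more than in 29.8% of genes. The element ATTTA, counted in the same way, was not found in IRS4, as in 20.9% of genes. INSR held 82 TTTTT (9.16 per 1000 nt, more than in 93.8% of genes) and 13 ATTTA. IGF1R held 92 TTTTT (7.85 per 1000 nt) and 13 ATTTA. IGF2R, with 48 exons and 82.3% coding sequence, held 19 TTTTT (2.09 per 1000 nt) and 7 ATTTA. IRS1 held 44 TTTTT and 15 ATTTA, and IRS2 held 14 TTTTT and 11 ATTTA, but their GENCODE lengths differed from the lengths in the files by 11.0% and 16.0%. A match describes the letters of these transcripts and is not a binding site. The transcript lengths given in the files were 3881 nt for IRS4, 8743 nt for IRS1, 7014 nt for IRS2, 9059 nt for INSR, 11242 nt for IGF1R and 9093 nt for IGF2R, so IRS4 was the shortest of the 6.

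IRS4 was the most abundant of the 6 genes per length in 8 of 10 libraries. In tags per 1000 nt of transcript per 1000000 tags, scaled over all 10 libraries, it stood at 4.08 and 4.59 with 4SU plus 365 nm, 42.5 and 60.7 with 4SU alone, 21.2 and 10.4 with 254 nm, 66.4 and 75.5 in untreated cells, 65.2 with HuR siRNA and 118.6 with GFP siRNA. The 2 crosslinked groups did not overlap with any group that was not crosslinked. The GFP siRNA library was the highest, and the HuR siRNA library lay just below the lower untreated library. Untreated IRS4 was above 95.1% and 95.8% of listed genes per length, and with 4SU plus 365 nm it was above 51.5% and 56.0%.

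In untreated cells the order per length was IRS4 at 71.0 ± 6.4 tags per 1000 nt per 1000000 tags, IGF2R at 13.4 ± 1.8, IGF1R at 7.81 ± 2.90, IRS2 at 3.99 ± 0.33, INSR at 3.67 ± 1.80 and IRS1 at 0.55 ± 0.30 (SD, n = 2). IRS2 and INSR did not differ beyond their spread and changed places between the 2 untreated libraries. Neither did IGF2R and IGF1R with 4SU alone, nor IRS2 and INSR with 254 nm. IRS4 per length was 5.47 and 5.16 times IGF2R and 17.7 and 17.9 times IRS2 in these libraries. The same 3 genes led in the same order with 4SU alone, with 254 nm and in both siRNA libraries. In both 4SU plus 365 nm libraries IGF2R led instead, and IRS4 was 0.483 and 0.518 times IGF2R per length, against 5.80 and 5.62 times with 4SU alone.

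**Figure D1:**
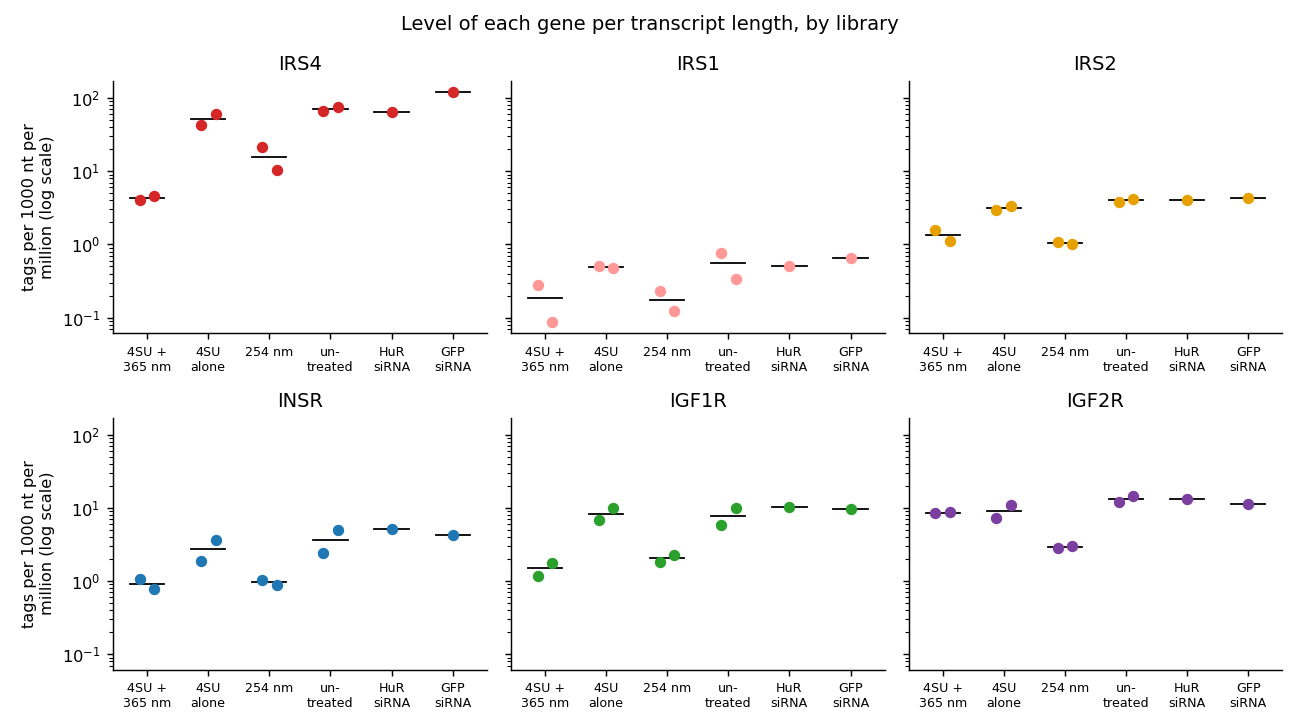
Level of each gene in tags per 1000 nt of transcript per 1000000 tags (log scale), with 1 point per library and a line at the group mean. IRS4 is above 10 in every library outside the 4SU plus 365 nm group, where it is 4.08 and 4.59, and IGF2R is 8.44 and 8.85 there and 2.87 and 2.97 with 254 nm.

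Shares within a library do not depend on how libraries are scaled against each other. IRS4 made up 54.2% (95% exact counting interval 32.8% to 74.4%) and 67.6% (49.5% to 82.6%) of all IRS tags in the 4SU plus 365 nm libraries. With 4SU alone it made up 86.7% (83.7% to 89.3%) and 89.5% (87.7% to 91.1%). The share was 89.6% and 83.3% with 254 nm, against 88.6% and 90.0% in untreated cells. With HuR siRNA it was 88.6%, against 92.8% with GFP siRNA. The 2 libraries of the 4SU plus 365 nm group were thus the lowest, on 24 and 34 IRS tags in all. Intervals cover counting error only.

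Among receptor tags, IGF2R made up 76.8% (66.2% to 85.4%) and 74.8% (66.8% to 81.8%) in the 4SU plus 365 nm libraries, against 41.7% (37.4% to 46.1%) and 40.5% (37.7% to 43.4%) with 4SU alone. It was 46.4% and 44.6% with 254 nm, against 56.1% and 46.1% in untreated cells, so these 2 groups lay closer together. The 4SU plus 365 nm libraries were the highest of the 10. INSR made up 18.1% to 42.1% of INSR and IGF1R tags over the 10 libraries, and the highest of these rested on 8 INSR tags.

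**Figure D2:**
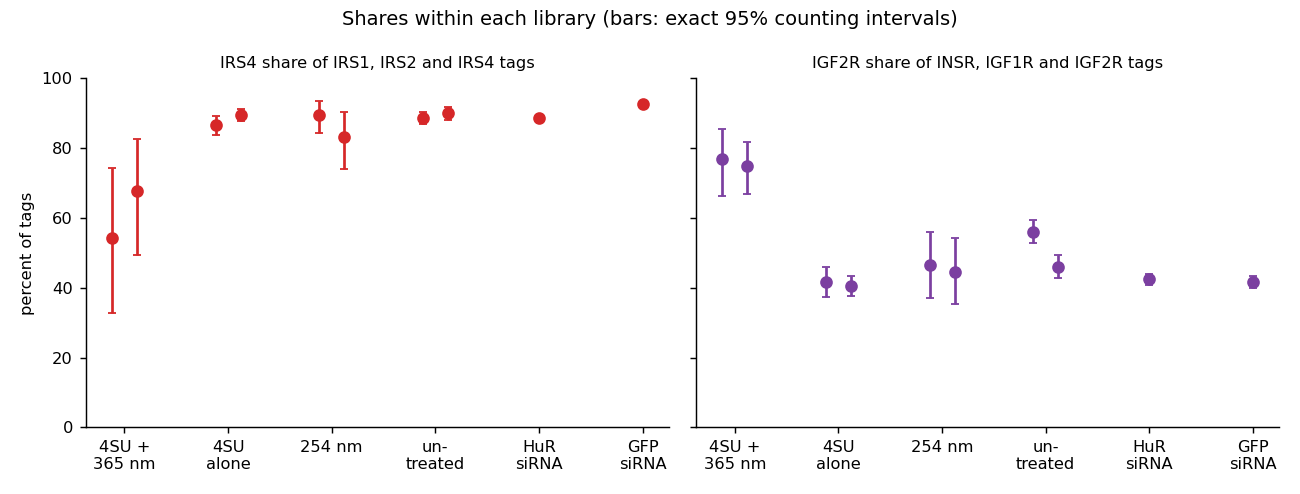
Percent of insulin receptor substrate tags from IRS4 (left) and of receptor tags from IGF2R (right), with 1 point per library and exact 95% counting intervals. The 4SU plus 365 nm libraries are the lowest of the 10 for IRS4 (54.2% and 67.6%) and the highest for IGF2R (76.8% and 74.8%).

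The first comparison asks what 4SU feeding alone does to the 6 genes. No member passed the test between 4SU alone and untreated cells, where 7.54% of 13731 tested genes were called, 3.85% higher and 3.69% lower (edgeR quasi-likelihood test, two-sided, Benjamini-Hochberg adjusted p under 0.05). No member had an unadjusted p under 0.05 either, and none was called by DESeq2. IRS4 had 149 and 213 normalised counts per 1000000 tags (CPM, scaled over the 8 libraries without siRNA) with 4SU alone, against 230 and 262 CPM in untreated cells. The log2 fold change was -0.44 ± 0.34 (SE, edgeR adjusted p = 0.468), although the 2 groups did not overlap. IGF2R had 60.2 and 88.6 CPM with 4SU alone, against 98.6 and 118.8 CPM in untreated cells, with a log2 fold change of -0.54 ± 0.32 (adjusted p = 0.318). The other 4 members had log2 fold changes between -0.36 and 0.11. A missed threshold with 2 libraries a group does not show that the levels were the same.

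Of 72 other insulin and IGF signalling genes tested, in 7 lists, 2 were higher and 3 lower with 4SU alone. That is near the 7.54% of all tested genes that were called. IDE, the protease that degrades insulin, fell by 1.68 on the log2 scale (adjusted p = 0.00161), and ENPP1, a membrane enzyme that inhibits the insulin receptor, fell by 1.54 (adjusted p = 0.0113). PIK3R3, a regulatory subunit of PI3 kinase, fell by 1.23 (adjusted p = 0.0334). Its untreated libraries lay far apart, with 180 and 363 tags, or 65.9 ± 42.7 CPM, against 27.8 ± 4.1 CPM with 4SU alone (SD, n = 2). AKT1S1, an AKT substrate that inhibits mTORC1, rose by 1.25 (adjusted p = 0.0166). IGFALS, which binds IGF complexes in serum, rose with 33 tags over the group against 4 tags in untreated cells.

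The second comparison sets 365 nm crosslinking of 4SU-fed cells against 4SU alone. Of the 6 members 4 were lower and none higher, where 33.7% of all tested genes were lower and 26.1% higher (59.9% called in all). Of all genes, 3590 were higher and 4632 lower. These counts were 3817 and 2822 with DESeq2, 3739 and 2632 with the length correction described below, and 1033 and 9946 with library totals in place of scaling factors. The median log2 fold change of all tested genes was -0.50. IRS4, IGF1R, INSR and IRS2 fell, and IGF2R and IRS1 did not pass.

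The substrate IRS4 had 13 and 23 tags, or 14.5 and 16.0 CPM, in 4SU plus 365 nm libraries, against 527 and 1135 tags, or 149 and 213 CPM, with 4SU alone. The groups were far apart, with a log2 fold change of -3.56 ± 0.42 (edgeR adjusted p = 3.83e-09), an 11.8-fold lower level. Only 1.43% of tested genes had a lower log2 fold change. IRS2 had 10.1 and 6.96 CPM in 4SU plus 365 nm libraries, against 18.9 and 21.2 CPM with 4SU alone. The groups did not overlap, and the log2 fold change was -1.28 ± 0.46 (adjusted p = 0.0162). That call was lost without library B of the 4SU plus 365 nm group (adjusted p = 0.193), without library B of the 4SU group (adjusted p = 0.0809) and with DESeq2 (adjusted p = 0.0913). IRS1, the least abundant member, had 2 and 1 tags in 4SU plus 365 nm libraries, against 14 and 20 tags with 4SU alone. Its log2 ratio from the summed tags was -1.57 with an exact counting interval of -3.92 to 0.09, and it did not pass (adjusted p = 0.125).

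The receptor kinase IGF1R had 11 and 26 tags, or 12.3 and 18.1 CPM, in 4SU plus 365 nm libraries, against 244 and 533 tags, or 69.0 and 99.9 CPM, with 4SU alone. It fell by 2.44 ± 0.40 on the log2 scale (adjusted p = 1.87e-06). INSR had 8.93 and 6.27 CPM in 4SU plus 365 nm libraries, against 15.3 and 30.2 CPM with 4SU alone. Its 2 groups did not overlap, and the log2 fold change was -1.63 ± 0.50 (adjusted p = 0.00538), but the call was lost without library B of the 4SU plus 365 nm group (adjusted p = 0.109) or of the 4SU group (adjusted p = 0.14). The transport receptor IGF2R had 70.4 and 72.4 CPM in 4SU plus 365 nm libraries, which lay within the 60.2 and 88.6 CPM of the 4SU libraries. The log2 fold change of IGF2R was -0.06 ± 0.33 (adjusted p = 0.879). With library totals in place of scaling factors it was -1.99 and passed, and the median of all genes was then -2.39.

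Fold changes ran with transcript length in both crosslinking comparisons, as the plot of fold change against length shows. The fit was therefore repeated with a correction that removed the trend of counts with length in each library. With it, 46.4% of tested genes were called, and 3 of the 6 members were among them. IRS4 stayed lower at -2.74 ± 0.37 (adjusted p = 4.11e-07) and IGF1R at -1.16 ± 0.35 (adjusted p = 0.00719). IGF2R turned to higher, at 1.18 ± 0.30 (adjusted p = 0.00167). INSR at -0.37 (adjusted p = 0.514), IRS2 at -0.11 (adjusted p = 0.847) and IRS1 at -0.33 (adjusted p = 0.801) were not called. The calls of INSR, IRS2 and IGF2R thus depended on this choice. COL1A1 moved with the same 2 libraries, at 57.0 and 63.4 CPM with 4SU plus 365 nm, against 11.0 and 17.2 CPM with 4SU alone, and its part in these results was not tested.

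**Figure D3:**
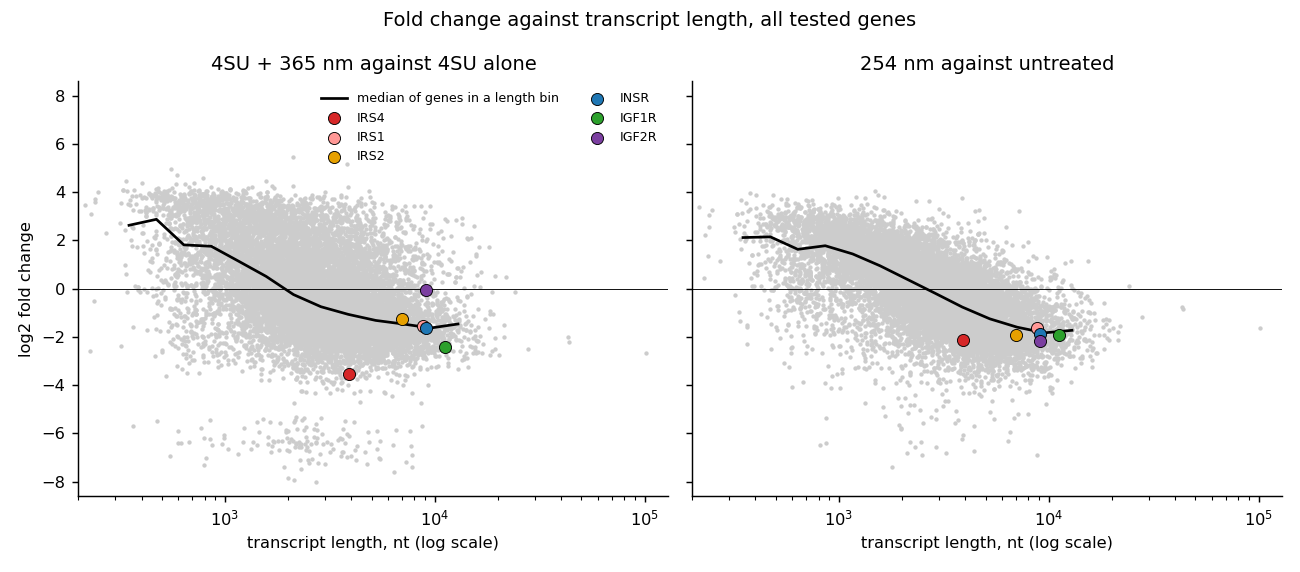
log2 fold change against transcript length (log scale) for all tested genes (grey), with the median of genes in length bins (line) and the 6 genes in colour. With 365 nm IRS4 lies below the median of genes of its length at -3.56 and IGF2R above it at -0.06, and with 254 nm the 5 long members lie close to the line.

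The other 72 pathway genes held 17 higher and 37 lower with 365 nm crosslinking (33.7% of all tested genes were lower). Their median log2 fold change was -0.99, against -0.50 over all genes. Pathway gene values, in this and the other comparisons, are given without the length correction. How far they ran with transcript length was not tested. Among 12 other adaptors 7 fell and none rose, including CRKL at -2.51, FYN at -2.21, CRK at -2.53 and SOS1 at -2.43. Of 7 metabolic and transcriptional targets 5 fell, among them the kinase GSK3B (-2.36), the glucose transport regulator TBC1D4 (-2.64) and the transcription factor FOXO3 (-1.86). In the PI3 kinase and AKT list 3 of 14 rose and 7 fell. AKT1 (3008 nt) rose by 1.67 ± 0.35. The AKT phosphatase PHLPP2 (-3.56, 7919 nt), the AKT-activating kinase PDPK1 (-2.05, 7254 nt) and the PI3 kinase subunit PIK3R1 (-2.25, 6453 nt) fell.

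In the mTOR and translation list 7 of 13 were higher and 5 lower, where 26.1% of all tested genes were higher and 33.7% lower; the same background holds for the next 2 lists. The S6 kinase gene RPS6KB2 rose by 3.59, the translation repressor EIF4EBP1 by 2.58, the mTOR subunit MLST8 by 2.34 and TSC2, which restrains mTORC1, by 1.81. Their transcript lengths were 1782, 877, 1655 and 5675 nt in that order. In the RAS and MAP kinase list 3 of 10 rose, namely HRAS (2.76, 1251 nt), MAP2K2 (2.48, 1759 nt) and MAPK3 (2.30, 2005 nt), and 6 fell. Of 12 receptor regulators 2 rose and 6 fell. The receptor phosphatase PTPRF (7733 nt) rose by 2.63, whereas PTPN1 (-1.89), the main insulin receptor phosphatase, and the receptor-binding adaptor GRB10 (-1.49) fell. The ubiquitin ligase NEDD4 had 1 tag over both 4SU plus 365 nm libraries, against 68 with 4SU alone, a log2 ratio of -4.16 (exact counting interval -9.48 to -1.63). Of 4 ligand-binding genes, IGFBP2 (1439 nt) rose by 3.90 and IGFBP6 (980 nt) by 3.88, both IGF-binding proteins. IGFALS had no tag with 4SU plus 365 nm and 33 with 4SU alone, which is at least 2.89-fold lower against a floor of 3 tags over the group.

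The third comparison sets 254 nm crosslinking against untreated cells, both without 4SU. All 6 members were lower, where 28% of all tested genes were lower and 25.2% higher (53.2% called in all), and the median over all genes was -0.14. With library totals 1390 genes were higher and 6454 lower, against 3459 and 3848 here. IRS4 had 164 and 75 tags, or 74.1 and 36.4 CPM, with 254 nm, against 1163 and 989 tags, or 230 and 262 CPM, in untreated cells. Its groups were well apart although the 2 libraries with 254 nm differed from each other. The log2 fold change was -2.15 ± 0.36 (edgeR adjusted p = 5.07e-06), a 4.44-fold lower level. IRS2 had 6.78 and 6.31 CPM with 254 nm, against 23.6 and 26.5 CPM in untreated cells, and fell by 1.93 ± 0.42 on the log2 scale (adjusted p = 0.000222). IRS1 had 4 and 2 tags with 254 nm, against 30 and 10 tags in untreated cells. It fell by 1.62 ± 0.70 with an adjusted p of 0.0481, and this call was lost with DESeq2 (adjusted p = 0.154) and on leaving out any of 7 of the 8 libraries (adjusted p 0.0556 to 0.390), and held without library B of the untreated group (adjusted p = 0.0171).

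IGF2R had 23.5 and 24.3 CPM with 254 nm, against 98.6 and 118.8 CPM in untreated cells. It fell by 2.18 ± 0.35 (adjusted p = 2.58e-06), close to the -2.15 of IRS4. IGF1R had 18.5 and 22.8 CPM with 254 nm, against 57.8 and 99.0 CPM in untreated cells, and fell by 1.92 ± 0.36 (adjusted p = 2.90e-05). INSR had 8.59 and 7.28 CPM with 254 nm, against 19.4 and 40.0 CPM in untreated cells, and fell by 1.89 ± 0.44 (adjusted p = 0.000468). For none of the 3 receptors did the groups overlap. The share of all tested genes without overlap was not computed. With the length correction, under which 35.5% of tested genes were called, 1 of the 6 members was called. IRS4 remained lower at -1.41 ± 0.31 (adjusted p = 0.00106). The other 5 members lay between -0.54 (IGF2R, adjusted p = 0.16) and -0.10 (IRS1, adjusted p = 0.929).

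Among the 72 other pathway genes 11 were higher and 33 lower with 254 nm (28% of all tested genes were lower). Their median log2 fold change was -0.76, against -0.14 over all genes. These values too are without the length correction. The other adaptors again held no increase, with 8 of 12 lower. The phosphatase PTPN11 (-2.97) and the adaptors FRS2 (-3.15), CRKL (-2.13) and CRK (-2.34) fell. In the PI3 kinase and AKT list 9 of 14 fell and none rose, including PIK3R1 (-2.94), PDPK1 (-2.18) and PHLPP2 (-1.82). Of the metabolic and transcriptional targets 4 of 7 fell: FOXO1 (-2.12), TBC1D4 (-1.76), GSK3B (-1.49) and FOXO3 (-1.60).

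Of 13 mTOR and translation genes 4 rose and 3 fell with 254 nm, near the 25.2% higher and 28% lower of all tested genes, which are also the background of the lists that follow: MLST8 rose by 2.30, EIF4EBP1 by 2.79 and AKT1S1 by 1.76, and RICTOR, a subunit of mTORC2, fell by 3.41. In the RAS and MAP kinase list 4 of 10 rose, led by HRAS (2.52) and MAP2K2 (2.25), and 3 fell, among them NRAS (-2.55). Of 12 receptor regulators SOCS1, an inhibitor of receptor signalling, rose by 1.93 on the log2 scale and 5 fell, including CBL (-2.68), NEDD4 (-2.51) and IDE (-1.43). SOCS1 had 17 and 50 tags with 254 nm, against 24 and 13 tags in untreated cells. Its mean was 16.0 ± 11.7 CPM, against 4.10 ± 0.93 CPM (SD, n = 2), so the size of the rise rested mainly on 254 nm library B. ENPP1 fell by 1.67. The binding proteins IGFBP2 and IGFBP6 rose by 2.74 and 2.20, and IGFBP5 fell by 0.99.

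**Figure D4:**
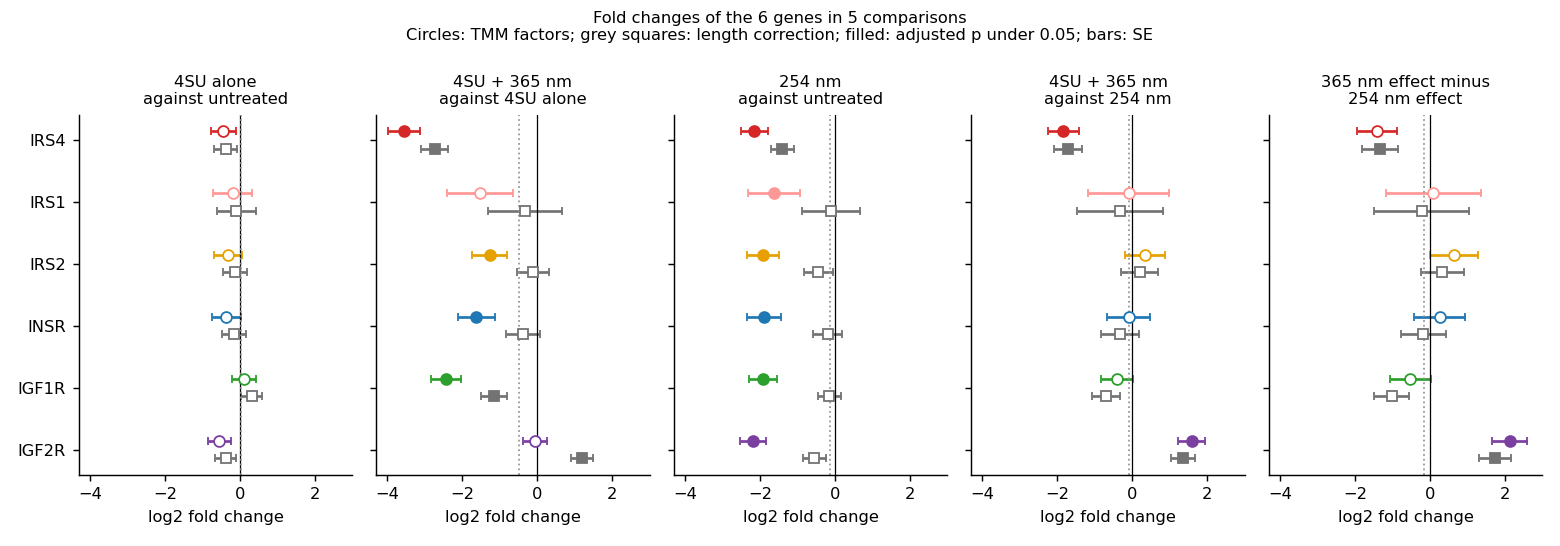
log2 fold changes with SE of the 6 genes in the 5 comparisons, from the TMM-scaled fit (circles) and with the length correction (grey squares), filled where the adjusted p is under 0.05. The dotted line marks the median of all genes. IRS4 is filled in both fits for 365 nm, 254 nm and their direct comparison, and IGF2R turns to higher with 365 nm under the correction.

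The direct comparison of 4SU plus 365 nm with 254 nm libraries called 2 of the 6 members, 1 in each direction, where 27.7% of all tested genes were called (15.2% higher and 12.4% lower). These groups differ in 4SU and in wavelength at the same time, and the parts of each cannot be told apart. IRS4 had 14.5 and 16.0 CPM with 4SU plus 365 nm, against 74.1 and 36.4 CPM with 254 nm, and its log2 fold change was -1.85 ± 0.42 (adjusted p = 0.000794). Without library A of the 254 nm group it was -1.24 (adjusted p = 0.0802). IGF2R was higher in both 4SU plus 365 nm libraries, at 70.4 and 72.4 CPM, against 23.5 and 24.3 CPM with 254 nm, a log2 fold change of 1.58 ± 0.36 (adjusted p = 0.000775). With library totals in place of the scaling factors it was 0.57 (adjusted p = 0.267). The remaining 4 members had log2 fold changes between -0.41 and 0.34 and did not pass. With the length correction the same 2 members were called, IRS4 at -1.72 and IGF2R at 1.35, and 28.4% of all tested genes. Among the other 72 pathway genes 11 were higher and 10 lower. PTPRF was higher by 3.49 and TSC2 by 2.06, and SLC2A1, a glucose transporter, was lower by 1.42 on the log2 scale.

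An interaction term tested whether the 365 nm effect differed from the 254 nm effect. It called 1 of the 6 members, IGF2R, where 17.1% of all tested genes were called (9.99% higher and 7.08% lower). The difference for IGF2R was 2.12 ± 0.48 on the log2 scale (adjusted p = 0.00139), between an effect of -0.06 with 365 nm and one of -2.18 with 254 nm. The length correction gave 1.73 (adjusted p = 0.00384), and library totals gave 1.06 (adjusted p = 0.139). For IRS4 the difference was -1.40 ± 0.54 (adjusted p = 0.0633). The IRS4 difference passed after length correction (-1.34, adjusted p = 0.0494), under which 19.4% of all tested genes were called, with library totals (-2.51, adjusted p = 0.000627) and without library B of the 254 nm group (-1.82, adjusted p = 0.0328). Differences for IRS1 (0.09), IRS2 (0.65), INSR (0.26) and IGF1R (-0.52) did not pass. Of the 72 pathway genes 9 had a positive and 5 a negative difference that passed. Those of PTPRF (3.45) and ENPP1 (3.33) were positive: ENPP1 rose by 1.66 with 365 nm and fell by 1.67 with 254 nm. ENPP1 averaged 29.8 ± 4.2 CPM with 4SU plus 365 nm, against 9.24 ± 5.48 CPM with 4SU alone (SD, n = 2). It averaged 8.66 ± 0.11 CPM with 254 nm, against 27.7 ± 4.2 CPM in untreated cells. Its level with 4SU plus 365 nm was thus near the untreated level, and the rise is against a low level with 4SU alone.

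The siRNA pair asks what lowering HuR does. The target ELAVL1 had 638 tags with HuR siRNA, against 1905 with GFP siRNA, a log2 ratio of -1.53 (exact counting interval -1.66 to -1.40). With 1 library each there is no replicate check and no test, and a gene is counted only past a 2-fold ratio. None of the 6 members was past it, where 12.5% of 17798 genes with at least 10 tags in the pair were (5.35% higher and 7.1% lower).

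IRS4 stood closest to that threshold, with 3360 tags with HuR siRNA, against 6253 with GFP siRNA. That is a log2 ratio of -0.85 (-0.91 to -0.79), or 1.80-fold lower, and 10.8% of the 17798 genes had a lower ratio. Of the 4640 genes with at least 1000 tags in the pair, 267 had a lower ratio, and 139 were past 2-fold lower. With library totals the IRS4 ratio was -0.95. IRS1 had 59 tags with HuR siRNA, against 78 with GFP siRNA, at -0.35 (-0.87 to 0.15), and IRS2 had 375, against 410, at -0.08 (-0.29 to 0.13). For both the interval includes 0. All 3 receptors had ratios above 0: INSR had 616 tags with HuR siRNA, against 519 with GFP siRNA, at 0.30 (0.13 to 0.47), IGF2R had 1573, against 1412, at 0.20 (0.10 to 0.31), and IGF1R had 1514, against 1456, at 0.11 (0.00 to 0.21). By TTTTT per 1000 nt the order was INSR (9.16), IGF1R (7.85), IRS1 (4.53), IGF2R (2.09), IRS2 (1.72) and IRS4 (1.02), and the log2 ratios in that order were 0.30, 0.11, -0.35, 0.20, -0.08 and -0.85. No relation between them was tested. NEFL, a neurofilament gene on the HEK293 marker list, was at 1088 CPM with HuR siRNA and 1329 CPM with GFP siRNA, scaled over all 10 libraries, against 234 and 286 CPM in untreated cells, so both siRNA libraries stood apart from untreated cells for this marker.

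**Figure D5:**
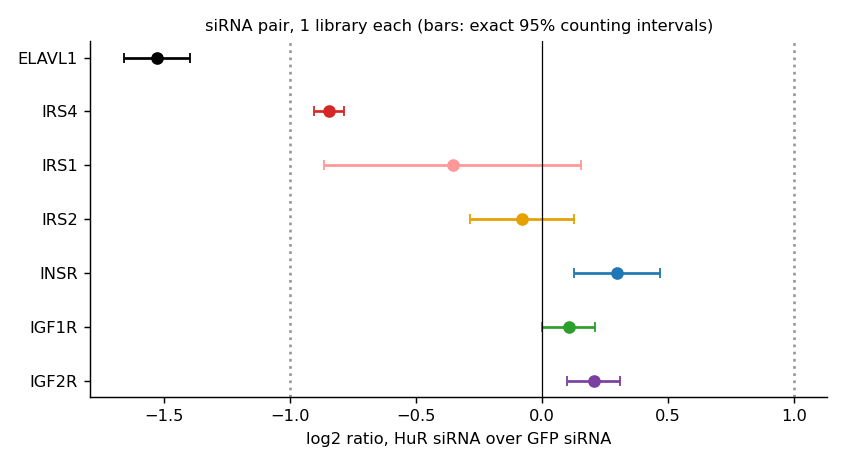
log2 ratio of HuR siRNA over GFP siRNA for ELAVL1 and the 6 genes, with exact 95% counting intervals and dotted lines at a 2-fold ratio. ELAVL1 is past the lower line at -1.53, IRS4 is at -0.85, and the 3 receptors lie between 0.11 and 0.30.

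The files held 78 other pathway genes, and those with at least 10 tags in the pair were compared. Of these 5 were past 2-fold lower with HuR siRNA, near the share of all genes (7.1%). PTPN11, the phosphatase SHP2 that binds IRS proteins, had 1098 tags with HuR siRNA, against 2700 with GFP siRNA, at -1.25 (-1.35 to -1.15). TBC1D4 was at -1.10, NEDD4 at -1.30 and the PI3 kinase catalytic subunit PIK3CA at -1.35. Those past 2-fold higher, also near the share of all genes (5.35%), were EIF4EBP1 at 1.37, MLST8 at 1.20, HRAS at 1.06 and IGFBP4 at 1.05. IGFALS at 1.05 and SH2B2 at 1.00 lay at the threshold. They were not past it on the scale of the 5.35%, which adds a small constant to each count. The interval of IGFALS, with 10 tags against 5, includes 0. The tag-weighted median length was 2674 nt with HuR siRNA, against 3020 nt with GFP siRNA. Transcripts of EIF4EBP1, MLST8, HRAS and IGFBP4 were 877, 1655, 1251 and 2246 nt long. Those of PTPN11, TBC1D4, NEDD4 and PIK3CA were 6300, 6363, 7019 and 3724 nt long. How far the ratios of the pair ran with transcript length was not tested.

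Over the 8 libraries without siRNA, the genes whose log2(CPM + 1) followed IRS4 most closely among the 6862 more abundant tested genes were MAP3K7 (Pearson r = 0.996), ZIC2 (0.992), HERC1 (0.991), FOXA1 (0.989) and ZNF589 (0.988). These values describe libraries that share 4 treatments and their depth, and carry no test. MAP3K7, a kinase of cytokine signalling, had 5.58 and 6.27 CPM with 4SU plus 365 nm, 29.96 and 41.04 CPM with 4SU alone, 17.6 and 12.6 CPM with 254 nm, and 44.97 and 55.06 CPM in untreated cells. Like IRS4 it was lowest with 4SU plus 365 nm and higher in 254 nm library A than in library B. Of the other members, IGF1R followed IRS4 with r = 0.917 and INSR with 0.868, and IGF2R with 0.386. INSR and IRS2 followed each other with r = 0.929.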

How the data were processed

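Polyadenylated RNA of 10 HEK293 libraries was sequenced. Per the file headers, each deposited file lists expected counts of tags per transcript and the transcript length. The authors' expected counts are not normalized and sum to the header's total. Fractions among the members occurred for IGF2R and IRS1 alone, where tags were shared between transcripts. The aligner, build and annotation release: not given in the sources used here. Counts were rounded to whole tags. Of 25005 accessions, 15886 were named from RefSeq and 134 from GENCODE 29, and 8985 stayed unnamed. Sequences and their positions come from GENCODE 29 (GRCh38), which may differ from the build the files used.

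The 8 libraries without siRNA entered a single quasi-likelihood fit of edgeR 4.0.16 (R 4.3.3) with a mean per group, TMM factors (0.373 to 1.75) and filterByExpr. It tested 13731 genes, called at a Benjamini-Hochberg adjusted p under 0.05. The SE is the size of the fold change over the square root of F. Scripts were tested on simulated data. Alternatives used DESeq2 1.42.0, RLE factors, library totals, no filter, the compared groups alone, a replicate block, a length correction (lowess, span 0.3, of log counts on length per library) and leaving out each library. Comparisons share libraries: the 4SU libraries serve in the 4SU and the 365 nm comparisons, and the untreated libraries in the 4SU and the 254 nm comparisons. The siRNA pair was compared by ratios with exact 95% counting intervals.

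The members and lists were chosen with earlier results of these data known. Named genes were all 6 members, ELAVL1, the 5 genes most correlated with IRS4, and up to 4 called genes per pathway list and comparison with the lowest adjusted p. Genes named beyond these, such as COL1A1, NEFL, SOCS1 and those of the siRNA pair, were chosen after their values were seen. Pathway genes outside the files or under the filter were not analysed here (83 listed, 78 in the files, 72 tested). The values of a few single genes on these lists are not reported here, and the counts include them.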

Additional observations from a re-analysis of the deposited data

Results flagged for a closer look

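The effect of crosslinking on IGF2R, the mannose 6-phosphate and IGF2 receptor, differed between 4SU-fed cells at 365 nm and cells without 4SU at 254 nm by 2.12 on the log2 scale (interaction term, edgeR adjusted p = 0.00139). With library totals in place of scaling factors the difference was 1.06 and did not pass (adjusted p = 0.139). IGF2R averaged 71.4 ± 1.5 CPM with 4SU plus 365 nm, against 74.4 ± 20.1 CPM with 4SU alone, and 23.9 ± 0.6 CPM with 254 nm, against 108.7 ± 14.3 CPM in untreated cells (SD, n = 2). The 2 libraries moved together in each crosslinked group. Of all tested genes, 17.1% were called for such a difference, so IGF2R is 1 of many.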

How the results depend on the processing

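Of 221 member values recomputed without leaving out a library, 182 kept their direction and call; of 240 that leave out 1 library, 211 did. The values that turned sign were mostly near 0 and not called. For 365 nm, IGF2R was 0.19 with DESeq2, 0.19 with RLE factors, 0.081 with the compared groups alone and 1.18 with the length correction, where it passed (-0.31 to 0.24 on leaving out a library). Between 4SU plus 365 nm and 254 nm, IRS1 was 0.12 with DESeq2 and 0.080 with RLE factors (-0.97 to 0.65 on leaving out a library), INSR 0.095 and 0.084 (-0.34 to 0.16), and IRS2 -0.67 with library totals. In the interaction, library totals gave -0.90 for IRS1, -0.40 for IRS2 and -0.82 for INSR, and the length correction -0.22 for IRS1 and -0.18 for INSR (leaving out a library, -0.76 to 0.85 for IRS1 and -0.35 to 0.85 for INSR). For 4SU alone, leaving out a library gave -0.96 to 0.23 for INSR, -0.24 to 0.53 for IGF1R and -0.64 to 0.52 for IRS1. Library totals also made IRS1 (-3.37) and IGF2R (-1.99) pass with 365 nm, with a median of all genes of -2.39. The cause was not tested.

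Members called moved to 1 of 6 with the length correction for 254 nm, and to 2 of 6 in the interaction with library totals, the length correction and the replicate block. Leaving out a library gave 2 to 4 for 365 nm, 5 to 6 for 254 nm, 1 to 2 in the direct comparison and 1 to 2 in the interaction. Over all genes, the 1035 calls for 4SU alone became 598 with DESeq2, 671 with library totals, 685 with the compared groups alone and 1693 with the replicate block (239 to 2679 on leaving out a library). The 8222 calls for 365 nm ranged from 5221 to 8923. The 3801 of the direct comparison became 6510 with library totals (2004 to 4568), and the 2344 of the interaction became 4928 (1096 to 3513). The 2216 genes past 2-fold in the siRNA pair became 1325 with at least 50 tags. Without a named library, the calls for 4SU alone were 239 (4SU A), 502 (4SU B), 2679 (untreated A) and 581 (untreated B). For 365 nm they were 5221 without 4SU plus 365 nm B, and 2 members were called without that library or without 4SU B. The direct comparison gave 2113 and 2004 without 4SU plus 365 nm A and B and 2236 without 254 nm A. The interaction gave 1440, 1096, 1480 and 1520 without 4SU plus 365 nm A, 4SU plus 365 nm B, 4SU A and 254 nm A. The split of higher against lower calls in the direct comparison was 2316 against 954 with DESeq2, 2499 against 1219 with RLE factors and 632 against 5878 with library totals (2092 against 1709 with TMM factors). In the interaction it was 1583 against 444, 1673 against 607, 498 against 4430 and, with the length correction, 1883 against 779 (1372 against 972 with TMM factors).

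What the letters A and B mark is not stated. Deviations of same-lettered libraries correlated at -0.25 to 0.42 between groups, and not every pair of groups was above 0.1, so the letters were not used as a block; whether some groups were paired was not settled. The replicate block made the IRS4 interaction pass (-1.40, adjusted p = 0.0403) and changed no other member call. IRS1, with 1 to 30 tags a library outside the siRNA pair, and INSR and IRS2, with 8 to 19 tags in crosslinked libraries, are limited by depth.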
